A study of Mus musculus with 8 samples.

Results

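Solute carriers are the membrane proteins that move sugars, amino acids, nucleosides, metals, lactate and other small molecules across the surface of a cell and between its compartments. The genes described here are the solute carrier genes that these macrophages expressed: the protein-coding genes whose symbol begins with Slc and a digit and whose mean over all 8 libraries was at least 5 RPKM (reads per kilobase of gene, scaled to the size of the library). Of 371 protein-coding Slc genes in the deposited table of 53715 genes, 81 met that level, 290 were under it, and 56 of those 290 were at 0 in all libraries. Since the level itself chose the genes, their levels are a description.

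The libraries are poly(A) RNA-seq of Sting-deficient mouse macrophages, and all groups received CMA, or 10-carboxymethyl-9-acridanone, at 500 µg/ml for 4 h. CMA is a compound that activates mouse STING. No library shows untreated cells. STING is the adaptor that relays cytosolic DNA sensing to interferon and NF-κB signalling. The study asked, by its title, how the C-terminal tail (CTT) shapes these outputs. Each group has 2 libraries. The zfCTT cells stably express mSTING carrying the zfCTT tail, which from what is known of the study is the zebrafish one. The mSTING cells stably express mouse STING. The dCTT cells express mSTING labelled dCTT, read here as lacking the tail. The no_transgene cells have no transgene label and are titled with the vector name MSCV2.2. Neither the promoter that drives the transgenes nor the number of cell clones is given in the sources used here.

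In macrophages, carriers set which fuels and building blocks a cell can use, and several sit on phagosomes and lysosomes, where they move metals, peptides and sugars out of digested cargo. Activated macrophages are known for high glucose uptake and lactate release, which pass through the GLUT family (Slc2a) and the monocarboxylate family (Slc16a). The largest family, Slc25a, serves the inner mitochondrial membrane.

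Read depth recovered from the steps of the RPKM values was 20.1 to 34.8 M reads in zfCTT, 88.1 to 88.2 in mSTING, 55.7 to 171 in dCTT and 27.7 to 101 in no_transgene, so both zfCTT libraries and 1 of no_transgene were the shallowest. Tmem173, which encodes STING, was at 14.2 and 20.6 RPKM in zfCTT, 10.6 and 22.2 in mSTING, 22.7 and 14.98 in dCTT, and 3.23 and 2.42 in no_transgene. Of 10 macrophage markers, 8 to 9 reached 1 RPKM in each library, with summed levels of 633 and 811 RPKM in zfCTT, 541 and 770 in mSTING, 895 and 841 in dCTT, and 1151 and 968 in no_transgene. Mertk stayed under 0.4 RPKM, and no marker of fibroblasts, T cells, B cells, neutrophils, erythroid or epithelial cells reached 1 RPKM in any library.

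The carrier genes together made up 0.244% to 0.307% of all RPKM in a library. Their summed level was 2249 and 2223 RPKM in zfCTT, 2170 and 2311 in mSTING, 2354 and 2254 in dCTT, and 2120 and 2350 in no_transgene, so the groups overlapped in the total. The level was concentrated in few genes. Slc25a5 alone held 17.6% of the summed RPKM and the 5 highest genes 39.5%, while the median gene had 11.8 RPKM. A mean of at least 100 RPKM was reached by 4 genes, at least 50 by 9, at least 20 by 28 and at least 10 by 48. At the lower edge, Slc10a3 at 5.03, Slc25a25 at 5.18 and Slc25a24 at 5.46 RPKM fell just inside the level, and Slc25a17 at 4.95, Slc1a4 at 4.93 and Slc23a2 at 4.89 just outside it. In 70 of the 81 genes every library was at 5 RPKM or more.

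**Figure D1:**
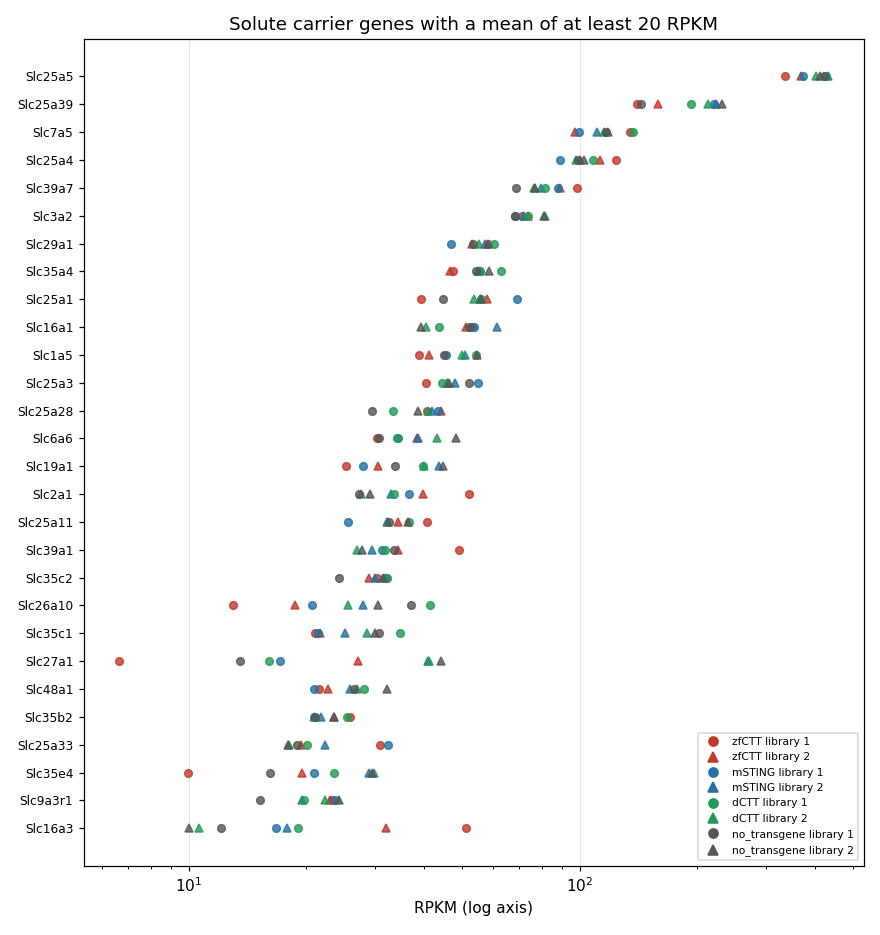
RPKM (log axis) of the 28 solute carrier genes with a mean of at least 20 RPKM, ordered by mean, with 1 point per library (circle: library 1; triangle: library 2; colour: group). Slc25a5 stands highest, with 336 to 433 RPKM, and Slc16a3 and Slc27a1 spread most widely across libraries.

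By substrate class, the mitochondrial carriers were the largest group, with 22 genes, followed by 15 amino acid carriers, 9 metal carriers, 7 nucleotide sugar carriers, 7 carriers of ions and pH, 5 of sugars and 5 of carboxylates. Nucleosides, vitamins, lipids, and peptides and histidine had 2 genes each, and organic anions had Slc10a3 alone. Classes follow the family number, which puts the multivitamin transporter Slc5a6 among the sugars. Slc9a3r1, a scaffold protein, and Slc7a6os are no carriers despite their symbols and were kept apart.

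The highest gene, Slc25a5, encodes an exchanger of ADP and ATP across the inner mitochondrial membrane. It was at 336 and 369 RPKM in zfCTT, 374 and 433 in mSTING, 429 and 403 in dCTT, and 421 and 412 in no_transgene. Its relative Slc25a4, of the same function, was at 124 and 113 RPKM in zfCTT, 89.1 and 100 in mSTING, 108 and 98.0 in dCTT, and 99.1 and 103 in no_transgene. Neither gene passed the test. Slc25a5 was lowest in both zfCTT libraries and Slc25a4 highest in them. Their log2 differences from no_transgene were -0.24 ± 0.17 and 0.23 ± 0.17 (SE), and the difference between the pair was not tested. Next among the mitochondrial carriers came Slc25a39, which brings glutathione into mitochondria, with a mean of 191 RPKM, the citrate carrier Slc25a1 with 54.1, the phosphate carrier Slc25a3 with 47.3 and the iron importer mitoferrin 2 (Slc25a28) with 39.0.

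Slc7a5 and Slc3a2, the light and heavy chains of the large neutral amino acid exchanger LAT1, averaged 116 and 73.8 RPKM. Slc7a5 was at 135 and 97.6 RPKM in zfCTT, 99.9 and 111 in mSTING, 137 and 116 in dCTT, and 117 and 118 in no_transgene. Slc3a2 was at 71.4 and 73.8 RPKM in zfCTT, 68.3 and 72.0 in mSTING, 73.8 and 81.7 in dCTT, and 68.2 and 81.3 in no_transgene. Neither chain separated zfCTT from no_transgene. The other highly expressed genes were Slc39a7, which releases zinc from the endoplasmic reticulum (82.4 RPKM), the nucleoside transporter ENT1 or Slc29a1 (55.4), Slc35a4 (54.5), the monocarboxylate transporter MCT1 or Slc16a1 (49.4), the glutamine carrier Slc1a5 (47.6), the taurine carrier Slc6a6 (37.2) and the folate carrier Slc19a1 (35.7). Slc19a1, which in human cells also imports cyclic dinucleotides that activate STING, was at 25.2 and 30.5 RPKM in zfCTT, 27.8 and 43.8 in mSTING, 39.8 and 40.0 in dCTT, and 33.8 and 44.8 in no_transgene.

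Each group was then set against the others with limma on log2(RPKM + 1), in 1 fit over the 13475 genes that reached 1 RPKM in at least 2 libraries. All 81 carriers were among them. The labels do not state whether both libraries of a group are separate cultures. The p-values therefore measure only their spread, which may be technical.

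Of the 81 carriers, 1 was higher in zfCTT than in no_transgene past the threshold, Slc2a6, and 0 were lower. Slc2a6 encodes GLUT6, a member of the glucose transporter family that is found mainly on lysosomal membranes. It was at 28.2 and 30.5 RPKM in zfCTT, 10.5 and 8.48 in mSTING, 8.63 and 9.06 in dCTT, and 5.73 and 8.12 in no_transgene. Both zfCTT libraries lay above all 6 others, and the 4 libraries of mSTING and dCTT lay close together. The deposited values correspond to 1815 and 3402 reads in zfCTT and 510 and 2638 in no_transgene, so counting error is small beside the difference. The log2 difference from no_transgene was 1.95 ± 0.20 (SE, limma adjusted p = 0.0196). Against dCTT it was 1.62 ± 0.20 (adjusted p = 0.0261), and against mSTING 1.54 ± 0.20, which did not pass (adjusted p = 0.0793; 0.0205 with protein-coding genes only). These 3 comparisons share the zfCTT libraries. In bulk RNA, more cells that express a gene and more of its RNA per cell cannot be told apart.

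The count of 1 carrier higher and 0 lower out of 81 stands beside 0.928% of all tested genes higher and 0.156% lower in the same comparison. Among the genes with a mean of at least 5 RPKM, 0.891% were higher. The carriers' share is close to that background. The call for Slc2a6 against no_transgene was lost when either zfCTT library, either dCTT library or either no_transgene library was left out. The log2 differences were then 1.73 to 2.17. Each of these fits left 1 library in a group, and fewer of all genes were called in each as well. The Slc2a6 call also ended without a filter on low values (limma adjusted p = 0.0577), with libraries weighted by their spread (0.0566) and with only the groups compared in the fit (0.0914). It ended too without the first libraries of both no_transgene and dCTT. Over all genes, 146 were called in the main fit, against 34 without the filter, 13 with the weights and 34 with only the groups compared.

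Slc2a6 lies on chromosome 2 of GRCm38 from 27021363 to 27027998 on the minus strand and shares no exonic sequence with another gene. The promoter windows of the called carrier, of the monocarboxylate carrier Slc16a3, which had the next smallest p-value, and of Slc6a12, the only 1 of the 61 carriers with a window in which 2 of the 4 motifs searched were matched, are shown to give the sequence context of the start sites. They come from RefSeq on GRCm38.p6, cover 250 bases before to 50 after an annotated start, and run 5′ to 3′ on the gene's strand. Capitals mark a match on either strand to 1 of the 4 motifs searched.
Slc2a6, chr2:27027949-27028248, minus strand: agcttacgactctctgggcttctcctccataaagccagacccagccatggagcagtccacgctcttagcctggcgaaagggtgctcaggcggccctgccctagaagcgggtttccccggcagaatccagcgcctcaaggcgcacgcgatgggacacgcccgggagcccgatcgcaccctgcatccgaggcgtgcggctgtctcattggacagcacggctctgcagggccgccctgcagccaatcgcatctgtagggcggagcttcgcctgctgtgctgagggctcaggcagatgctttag
Slc16a3, chr11:120948817-120949116, plus strand: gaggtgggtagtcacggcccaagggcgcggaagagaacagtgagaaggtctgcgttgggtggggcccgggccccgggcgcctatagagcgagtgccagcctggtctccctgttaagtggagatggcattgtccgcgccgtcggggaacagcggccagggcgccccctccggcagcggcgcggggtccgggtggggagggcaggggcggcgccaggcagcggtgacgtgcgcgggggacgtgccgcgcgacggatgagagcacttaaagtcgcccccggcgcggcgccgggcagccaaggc
Slc6a12, chr6:121342324-121342623, plus strand: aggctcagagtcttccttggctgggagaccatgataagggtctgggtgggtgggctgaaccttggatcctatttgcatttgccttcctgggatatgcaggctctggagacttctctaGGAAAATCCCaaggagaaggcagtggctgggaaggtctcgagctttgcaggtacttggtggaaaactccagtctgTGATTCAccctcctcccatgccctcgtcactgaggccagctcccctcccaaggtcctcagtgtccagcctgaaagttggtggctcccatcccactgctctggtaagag

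The motifs were the ISRE, bound by interferon-activated factors, the κB site, bound by NF-κB, the AP-1 site (tgantca) and the composite site of ATF4 (tgatgnaa), each on both strands, where n is any base. A window was found by symbol for 61 of the 81 carriers, and these 61 had 95 windows. Slc15a3, described below, was among the 20 without one, so its promoter was not searched. The windows of Slc2a6 and Slc16a3 held none of the 4 motifs. Slc6a12 has 5 windows, of which the most upstream is printed and the other 4 held no match. The printed window held a κB match at bases 118 to 127 and an AP-1 match at bases 193 to 199, counted from its 5′ end. A κB match was present in 3.16% of the carriers' windows, those of Slc37a4, Slc6a12 and Slc6a13, against 1.47% of all 32851 windows. An ISRE match was present in 1.05% against 3.44%, an AP-1 match in 7.37% against 7.81% and an ATF4 match in 2.11% against 3.97%. A match is a string of letters, and a window without one says only that these letters are not in it.

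Alongside Slc2a6, 2 further carriers had differences above 1 on the log2 scale between zfCTT and no_transgene, and neither passed the threshold. Slc15a3, a proton-coupled transporter of histidine and peptides in the lysosomal membrane, was at 47.7 and 28.1 RPKM in zfCTT, 20.6 and 9.02 in mSTING, 9.29 and 7.35 in dCTT, and 8.91 and 7.08 in no_transgene. Its zfCTT libraries lay above all others and its mSTING libraries above those of no_transgene. The log2 difference from no_transgene was 2.07 ± 0.41 (SE, limma adjusted p = 0.0798), and against mSTING and dCTT it was 1.36 (adjusted p = 0.390) and 2.02 (0.0883). Slc15a3 shares exonic sequence with Tmem132a on the opposite strand. The strand setting is not given, so reads in the shared stretch, whose length was not measured, cannot be told apart. Tmem132a was at 13.9 and 10.8 RPKM in zfCTT, 8.14 and 5.17 in mSTING, 6.07 and 4.94 in dCTT, and 3.62 and 4.54 in no_transgene; its part in the Slc15a3 values was not tested.

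Slc16a3, or MCT4, exports lactate. It was at 51.3 and 32.0 RPKM in zfCTT, 16.7 and 17.8 in mSTING, 19.0 and 10.6 in dCTT, and 12.1 and 10.0 in no_transgene. Both zfCTT libraries lay above the other 6, and the shallower zfCTT library was the higher one, as it was for Slc15a3. The log2 difference from no_transgene was 1.79 ± 0.33 (SE, limma adjusted p = 0.0638), with 1.19 (0.370) against mSTING and 1.45 (0.117) against dCTT. When genes other than protein-coding ones were left out of the test, Slc15a3 and Slc16a3 passed against no_transgene (adjusted p of 0.0273 and 0.0212) and against dCTT (0.0322 and 0.0474). Slc16a3 shares no exonic sequence with another gene.

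The closest relatives of these 3 carriers among the expressed genes did not show differences of that size. Slc2a1, the plasma membrane glucose transporter GLUT1, was at 52.0 and 39.6 RPKM in zfCTT, 36.7 and 32.9 in mSTING, 33.5 and 27.5 in dCTT, and 27.2 and 29.2 in no_transgene. Both zfCTT libraries were the highest, with a log2 difference from no_transgene of 0.67 ± 0.20 that did not pass (SE, limma adjusted p = 0.223). Slc2a1 overlaps Gm12868 on the opposite strand, which was at 28.7 and 27.4 RPKM in zfCTT and 10.5 and 18.0 in no_transgene; its part was not tested. Slc15a4, the other endolysosomal histidine carrier, was at 6.95 and 6.91 RPKM in zfCTT, 7.70 and 7.09 in mSTING, 8.09 and 6.75 in dCTT, and 7.88 and 7.37 in no_transgene. MCT1 (Slc16a1) was at 53.1 and 51.1 RPKM in zfCTT, 53.8 and 61.4 in mSTING, 43.6 and 40.4 in dCTT, and 52.1 and 39.4 in no_transgene. Slc15a4 and Slc16a1 differed between zfCTT and no_transgene by -0.12 ± 0.16 and 0.20 ± 0.19 (log2, SE), less than 2 standard errors, and that of Slc16a1 was -0.0011 without the second no_transgene library. The differences between relatives were not tested.

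**Figure D2:**
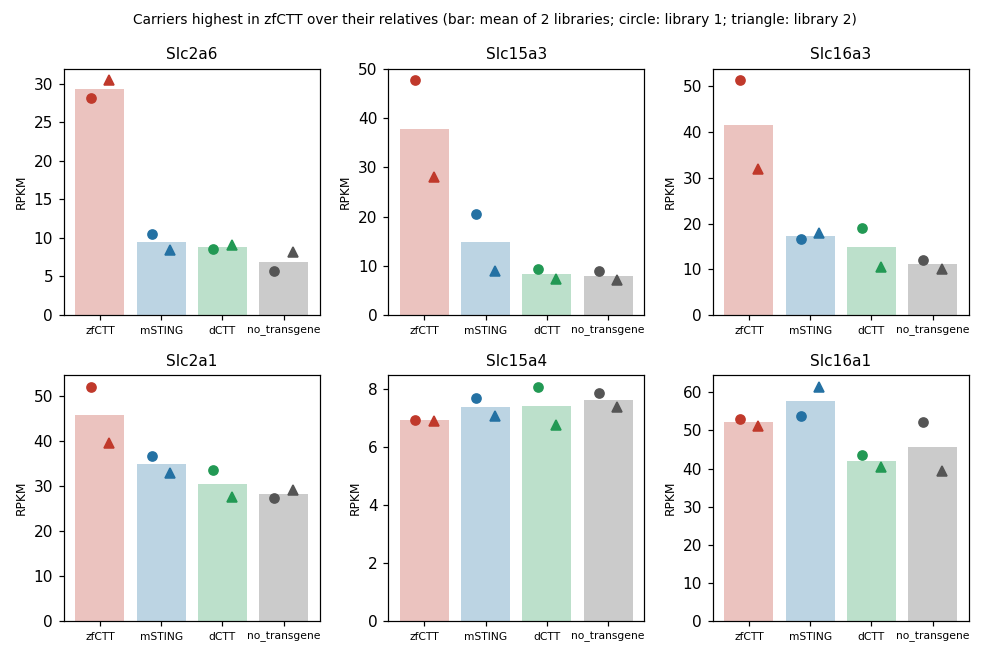
RPKM of Slc2a6, Slc15a3 and Slc16a3 (top) and of their relatives Slc2a1, Slc15a4 and Slc16a1 (bottom) in zfCTT, mSTING, dCTT and no_transgene; bars are means of 2 libraries, circles library 1 and triangles library 2. The zfCTT points of the top row lie above those of every other group, while Slc15a4 lies between 6.75 and 8.09 RPKM in all 8 libraries.

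Of all 81 carriers, 22 had both zfCTT libraries above both no_transgene libraries (27.2%, against 18.8% of all tested genes) and 20 had both below (24.7%, against 20.8%). The median log2 difference was -0.03 among the carriers and -0.04 over all tested genes. An unadjusted p under 0.05 was reached by 15 carriers and by 13.4% of all tested genes.

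Among the carriers higher in both zfCTT libraries, without passing the test, were 9 of the 22 mitochondrial ones (40.9%, against 18.8% of all tested genes). Of these 22, 3 were lower (13.6%, against 20.8%). Slc25a38, a glycine carrier that serves heme synthesis, was at 15.2 and 11.2 RPKM in zfCTT, 8.85 and 7.40 in mSTING, 8.06 and 8.65 in dCTT, and 6.28 and 7.88 in no_transgene, a log2 difference of 0.81 from no_transgene. Slc25a12, an aspartate and glutamate carrier, was at 25.6 and 15.1 RPKM in zfCTT, 9.99 and 12.0 in mSTING, 15.5 and 11.9 in dCTT, and 14.5 and 11.9 in no_transgene (0.55). The calcium-regulated ATP carrier Slc25a25 (0.66) and the branched-chain amino acid carrier Slc25a44 (0.51) had differences of like size, with limma adjusted p-values of 0.258 and 0.317. Slc25a25, counted among the 9, averaged 7.19 RPKM in zfCTT, 5.32 in mSTING, 4.13 in dCTT and 4.09 in no_transgene. Its zfCTT values thus helped it reach the level of 5 RPKM that chose the genes. At the lower end stood mitoferrin 1, Slc25a37, with -0.30, at 3.83 and 5.45 RPKM in zfCTT against 5.91 and 5.84 in no_transgene.

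The amino acid carriers showed both directions. In both zfCTT libraries, 2 genes were higher (13.3%, against 18.8% of all tested genes) and 3 lower (20%, against 20.8%). Slc6a12 and Slc6a13, neighbouring genes on chromosome 6 that encode transporters of betaine and GABA, differed in opposite directions. Slc6a12 was at 19.2 and 18.2 RPKM in zfCTT, 16.4 and 11.9 in mSTING, 13.9 and 9.85 in dCTT, and 10.1 and 10.2 in no_transgene (log2 difference 0.82 ± 0.22, SE, limma adjusted p = 0.180). Slc6a13 was at 5.89 and 8.13 RPKM in zfCTT, 10.1 and 9.22 in mSTING, 12.7 and 10.5 in dCTT, and 10.8 and 11.0 in no_transgene (-0.59 ± 0.19, adjusted p = 0.275). In each gene the zfCTT libraries lay outside those of the other 3 groups, and neither passed. The arginine importer Slc7a1 was at 26.7 and 16.3 RPKM in zfCTT against 13.9 and 14.7 in no_transgene, and the leucine carrier LAT4, Slc43a2, at 6.47 and 9.53 RPKM in zfCTT against 11.1 and 15.1 in no_transgene (-0.65). Slc1a5 was at 38.9 and 41.3 RPKM in zfCTT against 45.1 and 54.5 in no_transgene.

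Among the metal carriers, 4 were higher in both zfCTT libraries (44.4%, against 18.8% of all tested genes) and 4 lower (44.4%, against 20.8%). The plasma membrane zinc importer Slc39a1 was at 49.2 and 34.4 RPKM in zfCTT, 31.2 and 29.4 in mSTING, 31.8 and 27.0 in dCTT, and 33.4 and 27.7 in no_transgene. The zinc importer Slc39a4 had the largest positive difference of the class (0.78 ± 0.43), but its 2 libraries in dCTT, at 12.4 and 5.28 RPKM, were further apart than the means of zfCTT and no_transgene. Slc39a13 (0.47), with a mean of 8.65 RPKM, overlaps Psmc3 on the opposite strand. Psmc3 was at 126 and 111 RPKM in zfCTT and 88.1 and 93.7 in no_transgene, and its part in the Slc39a13 values was not tested. The heme carrier Slc48a1 was at 21.6 and 22.7 RPKM in zfCTT against 26.5 and 32.2 in no_transgene, and overlaps Hdac7 on the opposite strand.

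Slc11a1, or Nramp1, removes divalent metals from phagosomes and is a classical gene of resistance to intracellular bacteria. It was at 3.31 and 6.76 RPKM in zfCTT, 3.69 and 4.59 in mSTING, 9.07 and 8.36 in dCTT, and 7.24 and 9.29 in no_transgene. All 4 libraries of the tailed proteins, zfCTT and mSTING, lay below all 4 of dCTT and no_transgene. The log2 difference between these 2 sets was -0.80 ± 0.21 (SE, limma adjusted p = 0.180), and none of the 19 alternative settings brought it past the threshold. The summed macrophage markers also lay lower in these 4 libraries (541 to 811 RPKM) than in the 4 of dCTT and no_transgene (841 to 1151). This was not a fall of all markers. Lyz2 reached at most 146 RPKM in these 4, against 167 to 486 in the others. Itgam (at most 6.78 against at least 8.40) and the very low Mertk were also apart. The other markers, among them Cd68 and Cd14, overlapped between the sets. Fcgr1 tended the other way, at 34.0, 21.6, 18.5 and 6.71 RPKM against 8.93, 5.22, 9.83 and 5.38. The part of the markers in the Slc11a1 values was not tested.

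The remaining classes held the lowest value of the comparison. Slc26a10 was at 12.9 and 18.7 RPKM in zfCTT, 20.7 and 27.9 in mSTING, 41.5 and 25.5 in dCTT, and 37.0 and 30.5 in no_transgene, a log2 difference of -1.06 ± 0.31 from no_transgene (SE, limma adjusted p = 0.203). It overlaps B4galnt1 on the opposite strand, which was at 38.2 and 70.7 RPKM in zfCTT, 91.5 and 106 in mSTING, 119 and 105 in dCTT, and 99.2 and 112 in no_transgene. The part of B4galnt1 in the Slc26a10 values was not tested. Slc50a1, a sugar transporter, was at 12.7 and 12.3 RPKM in zfCTT against 19.95 and 16.7 in no_transgene (-0.51), and the mitochondrial sodium and calcium exchanger Slc8b1 at 3.99 and 5.87 against 6.46 and 8.21 (-0.50). Slc35c1, the GDP-fucose carrier of the Golgi, was at 21.1 and 21.7 RPKM in zfCTT, 21.4 and 25.0 in mSTING, 34.6 and 28.6 in dCTT, and 30.6 and 29.97 in no_transgene.

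**Figure D3:**
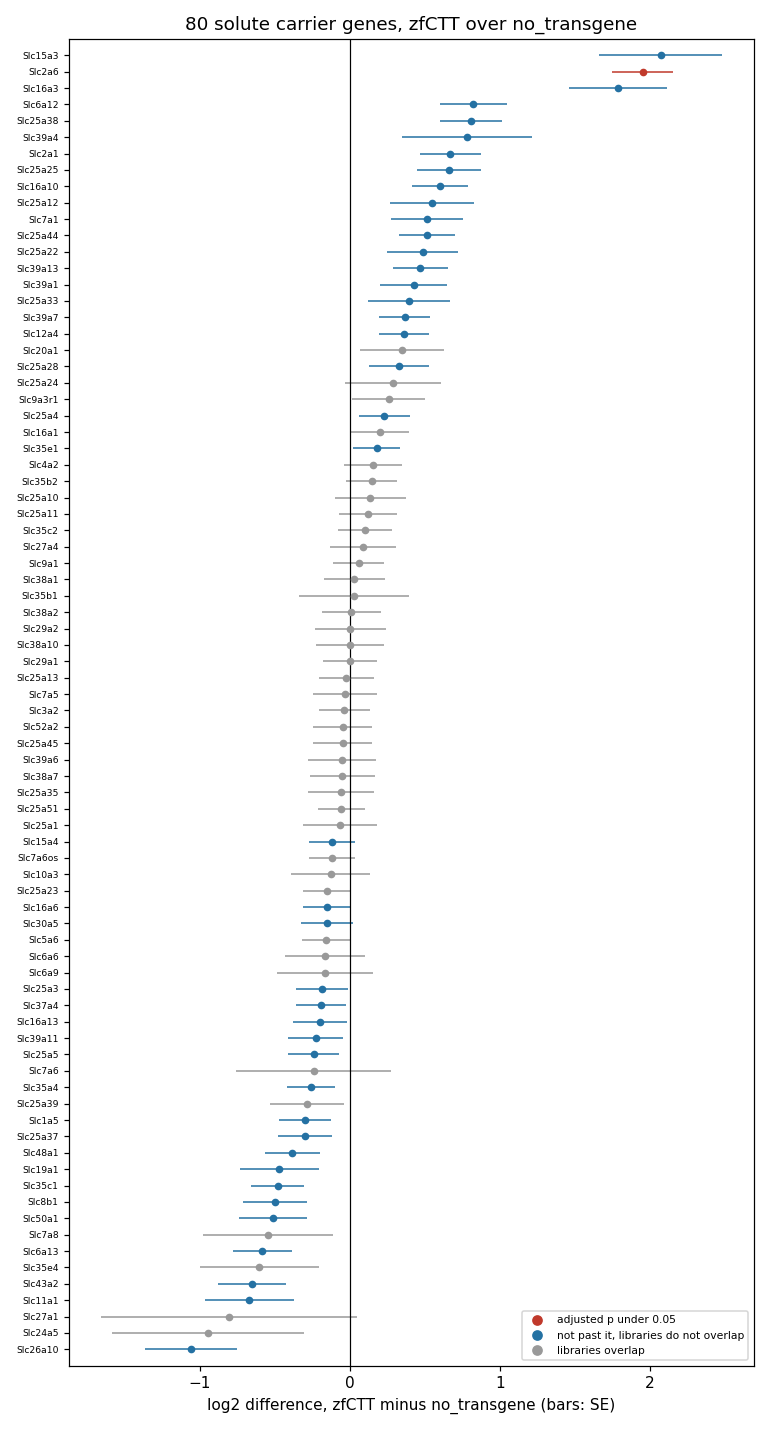
Log2 difference in RPKM + 1 between zfCTT and no_transgene for 80 of the 81 carriers, ordered by size, with SE bars; red marks an adjusted p under 0.05, blue libraries that do not overlap between the groups, grey libraries that overlap. Slc2a6 is the 1 red point, Slc15a3 has the highest difference at 2.07 and Slc26a10 the lowest at -1.06.

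Against mSTING, 0 carriers passed in zfCTT, beside 0.111% of all tested genes higher and 0.00742% lower; 7 carriers and 11.0% of all genes had an unadjusted p under 0.05, and voom on the recovered reads also called 0. Both zfCTT libraries lay above both mSTING libraries in 27 carriers (33.3%, against 24.9% of all genes) and below in 16 (19.8%, against 24.4%). After Slc2a6, Slc15a3 and Slc16a3, the largest positive values were those of Slc39a4 (0.99), Slc25a12 (0.79) and the phosphate importer Slc20a1 (0.69). The lowest were those of Slc27a1 (-0.91, and 0.028 without the first zfCTT library) and Slc35e4 (-0.77). Slc25a39 was lower in zfCTT, at 140 and 159 RPKM against 221 and 223 in mSTING, with a difference of -0.57 ± 0.25 that did not pass; no_transgene spanned 144 to 231 RPKM.

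Against dCTT, Slc2a6 was the 1 carrier higher in zfCTT, beside 0.913% of all tested genes, and 0 were lower, beside 0.171%. An unadjusted p under 0.05 was reached by 16 carriers and by 12.7% of all genes. Both zfCTT libraries lay above both dCTT libraries in 22 carriers (27.2%, against 20.1% of all genes) and below in 24 (29.6%, against 24.7%). This Slc2a6 call was lost without either zfCTT library, either dCTT library or either no_transgene library, in fits that called fewer of all genes as well. Slc15a3 and Slc16a3 had differences of 2.02 and 1.45, and neither passed (limma adjusted p of 0.0883 and 0.117). Slc16a10, a carrier of aromatic amino acids, followed among the positive values with 0.68, and the lowest value was -1.02, of Slc26a10. Slc16a10 was at 12.8 and 10.5 RPKM in zfCTT, 11.1 and 8.57 in mSTING, 6.84 and 6.87 in dCTT, and 7.75 and 6.89 in no_transgene.

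The 3 comparisons without zfCTT called 0 carriers in limma and 0 in voom, and the share of all tested genes called was 0% in each. Between mSTING and no_transgene, 1 carrier and 3.47% of all genes had an unadjusted p under 0.05; the libraries did not overlap for 15 higher carriers (18.5%, against 15.3% of all genes) and 18 lower ones (22.2%, against 17.0%). The largest values in either direction were -0.85 for Slc11a1, -0.74 for Slc7a6, 0.72 for Slc15a3, -0.64 for Slc24a5, -0.62 for Slc7a8 and 0.60 for Slc16a3. That of Slc7a6 was 0.046 without the first no_transgene library. Between dCTT and no_transgene, 0 carriers and 0.267% of all genes had an unadjusted p under 0.05, and 5 were higher without overlap (6.17%, against 7.75%) and 4 lower (4.94%, against 6.69%). The differences there ran from -0.45 to 0.34, the narrowest range of the 6 pairs of groups.

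Between dCTT and mSTING, 3 carriers and 2.49% of all genes had an unadjusted p under 0.05, and the libraries did not overlap for 22 higher carriers (27.2%, against 16.2% of all genes) and 11 lower ones (13.6%, against 12.8%). Of the 15 amino acid carriers, 14 had a positive difference, beside 7597 of all 13475 tested genes. In this class 9 were higher without overlap (60%, against 16.2%) and 0 lower (0%, against 12.8%). The class median was 0.23 beside 0.03 for all genes. Of the 22 mitochondrial carriers, 9 were lower without overlap (40.9%, against 12.8%) and 4 higher (18.2%, against 16.2%). Both classes were named here after their values were seen. The largest value was that of Slc11a1, at 0.92 ± 0.29 (SE, limma adjusted p = 0.9999).

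Set together, zfCTT and mSTING over dCTT and no_transgene had Slc2a6 as the 1 carrier past the threshold, higher by 1.02 ± 0.14 (SE, limma adjusted p = 0.0413). Beside it, 0.779% of all genes were higher and 0.134% lower. An unadjusted p under 0.05 was reached by 18 carriers and 10.7% of all genes. The pooled difference of Slc2a6 rested mainly on zfCTT, with a mean of 29.3 RPKM. Its mean in mSTING, 9.50 RPKM, was near that in dCTT, 8.84, with 6.92 in no_transgene. Slc2a6 was not called in the comparisons without zfCTT. The libraries of the 2 sets overlapped for it, since 1 mSTING library, at 8.48 RPKM, was below 2 dCTT ones, and the call ended without any 1 of the 8 libraries, at adjusted p-values of 0.0638 to 0.210. All 4 libraries lay above the 4 others in 4 carriers (4.94%, against 4.72% of all genes), Slc16a10, Slc25a22, Slc25a25 and Slc25a44. They lay below in 5 (6.17%, against 3.57%), Slc11a1, Slc6a13, Slc43a2, Slc35c1 and Slc48a1. These 9 were named after their values were seen, and the zfCTT values of Slc25a25 also helped it reach the level of 5 RPKM.

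**Figure D4:**
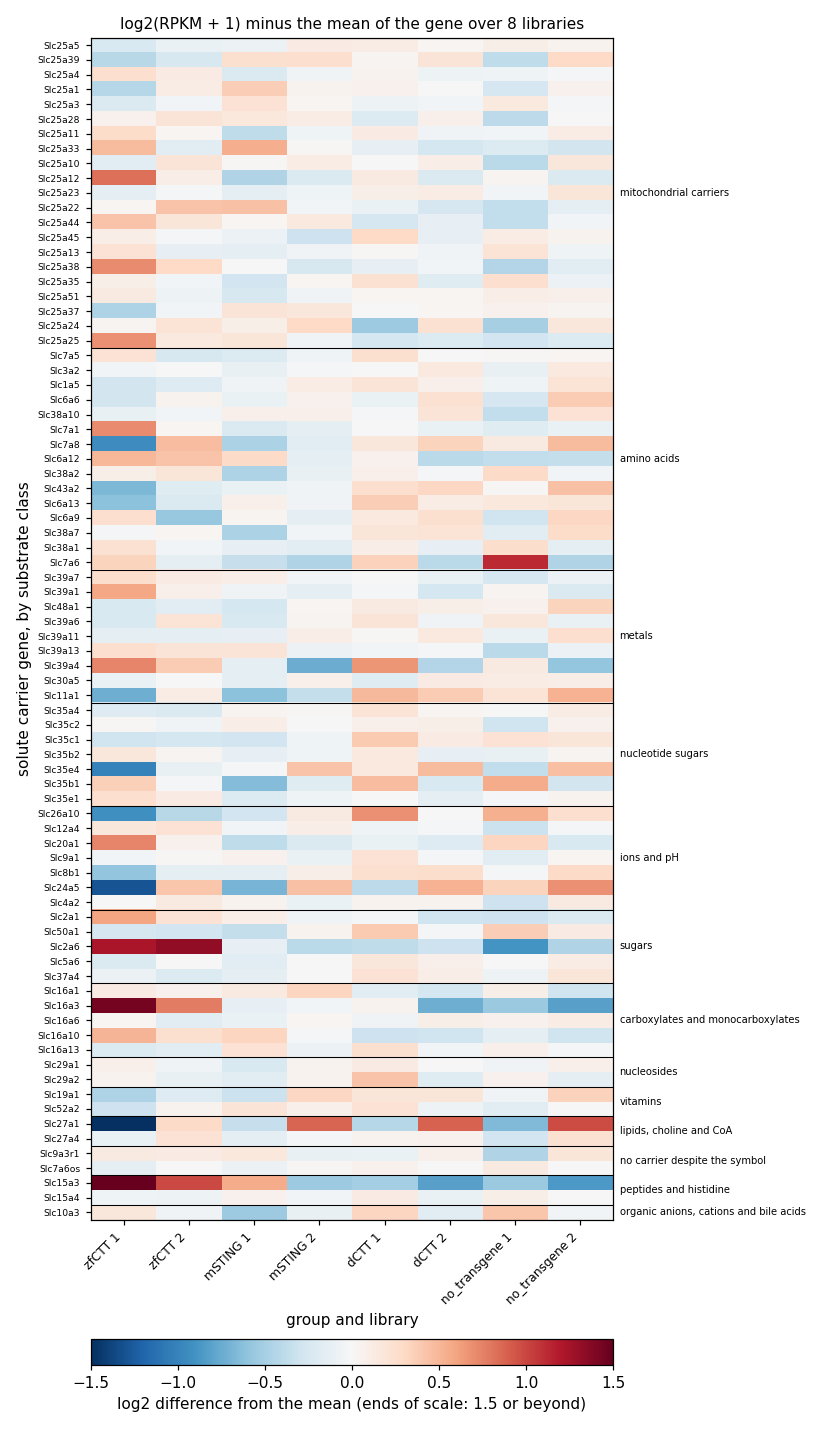
log2(RPKM + 1) of 80 of the 81 carriers in each of the 8 libraries, minus the gene's mean over the libraries, grouped by substrate class (rows) with zfCTT at the left (columns); red is above the gene's mean and blue below. Slc2a6, Slc15a3 and Slc16a3 are the reddest in the zfCTT columns, and Slc27a1 alternates between library 1 and library 2 in every group.

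Over the 8 libraries, the carriers whose profile was most like that of Slc15a3, the carrier with the largest difference, were Slc16a10 (Pearson r = 0.945), Slc2a1 (0.942), Slc25a25 (0.938), Slc6a12 (0.928) and Slc16a3 (0.912), with Spearman rho of 0.714, 0.905, 0.690, 0.929 and 0.929. These are a description over 8 libraries of 4 groups, which share depth and library number as well as the transgene, and carry no p. Slc25a25 is among the genes compared partly through its zfCTT values.

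The median carrier differed 1.60-fold between its highest and lowest library, against 1.77-fold for all genes with a mean of at least 5 RPKM. The highest library was under 1.5-fold above the lowest in 29 of the 81, from 1.5-fold to under 2-fold in 30, and 2-fold or more in 22 (27.2%, against 37.3% of all genes with a mean of at least 5 RPKM). The first zfCTT library, the shallowest, was the highest of the 8 in 22 carriers and the lowest in 25. Group means were 2-fold or more apart in 7 carriers. Libraries of the same group differed 2-fold or more in 7 carriers (8.64%, against 19.6%).

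Slc27a1, a fatty acid transport protein, was 2-fold or more apart within every group. It was at 6.64 and 27.1 RPKM in zfCTT, 17.1 and 41.0 in mSTING, 16.1 and 41.2 in dCTT, and 13.5 and 44.3 in no_transgene. The second library was the higher in every group. It was also the deeper in zfCTT, dCTT and no_transgene, and of about equal depth in mSTING; the part of depth was not tested. Slc24a5 was at 1.78 and 8.04 RPKM in zfCTT, 3.20 and 8.18 in mSTING, 4.16 and 8.76 in dCTT, and 7.57 and 9.91 in no_transgene, and overlaps Myef2 on the opposite strand. The second library was higher in all 4 groups in 18 carriers (22.2%, against 19.3%) and the first in 8 (9.88%, against 13.1%). Of the first kind was Slc35e4, and of the second Slc39a4 and Slc7a6, an exchanger of cationic and neutral amino acids, which was at 14.3 RPKM in the first no_transgene library and 4.15 in the second. Slc7a8, another neutral amino acid exchanger, was at 7.02 and 20.2 RPKM in zfCTT against 15.9 and 20.4 in no_transgene. For these genes the spread between libraries of a group was as large as the differences between groups.

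**Figure D5:**
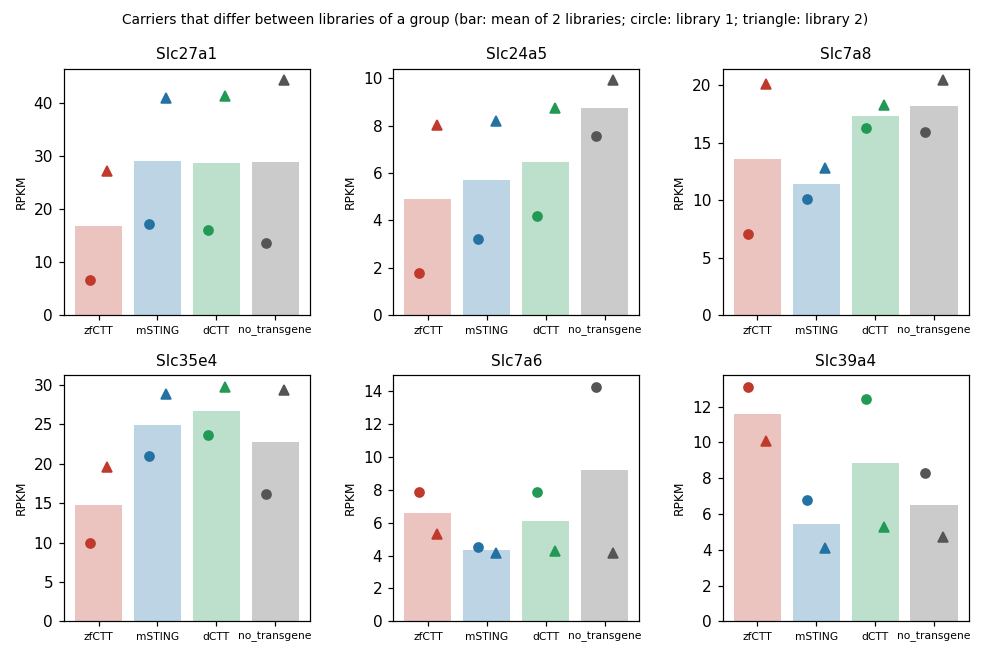
RPKM of 6 carriers that differ between libraries of the same group, in zfCTT, mSTING, dCTT and no_transgene; bars are means of 2 libraries, circles library 1 and triangles library 2. Slc27a1, Slc24a5, Slc7a8 and Slc35e4 are higher in library 2 of every group, and Slc7a6 and Slc39a4 in library 1.

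The other transporter lists were counted with the same fit. Of the 290 Slc genes under the level, 73 were tested, and limma called 0 of them, 0 of 23 tested ABC transporters, 0 of 17 subunits of the vacuolar proton pump, 0 of 13 atypical carriers and 0 of 17 carrier partners and metal handling genes, in each of the 7 comparisons; between zfCTT and no_transgene, 0.928% of all tested genes were called higher and 0.156% lower. Between zfCTT and no_transgene, an unadjusted p under 0.05 was reached by 8 of the 73, 5 of the 23, 1 of the 17 pump subunits, 0 of the 13 and 2 of the 17 partners, beside 13.4% of all tested genes. Their median log2 differences there were -0.08, -0.11, -0.01, 0.09 and -0.06, beside -0.04 over all tested genes.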

How the data were processed

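RNA was sequenced from 8 poly(A) single-end libraries, 2 for each of 4 transgene labels, per the labels' protocols. The authors deposited RPKM for 53715 genes, and raw counts were not used here. Per the submitters' processing notes, cutadapt 1.16, HISAT2 2.1.0, GRCm38 and mm10 were used, with no role stated. Neither the counting tool nor the annotation release and strand setting is given in the sources used here. The values of 30 of the 81 carriers that share exonic sequence with another gene in GENCODE release 21 are therefore uncertain. Symbols were found for 53620 identifiers.

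Multiplying RPKM by exon length gave whole reads, to within 0.05 of a read, in 95.0% to 95.6% of nonzero values, and from these the depths. Groups were compared by limma (version 3.58.1, R version 4.3.3) with an intensity trend on log2(RPKM + 1) over 13475 genes with at least 1 RPKM in at least 2 of 8 libraries. The 8 libraries shared 1 fit, with 1 mean for each group and 4 residual degrees of freedom. Each of 7 comparisons was two-sided, with Benjamini-Hochberg adjustment over all genes at 0.05. The scale understates differences of low genes. Errors beside differences are SE. The method was tested on simulated data.

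The members, gene lists and tests were chosen with earlier results of these data known. Named were carriers past the threshold without overlap, the 15 highest, those next to the level and a list of 41 Slc genes with macrophage roles. Also named were the 5 most like the carrier of largest difference, and the extremes of each class, largely by family number with 2 exceptions. Others were named after their values were seen. Each comparison was repeated under 16 other settings (pseudocounts of 0.1 and 0.5, 2 other filters, the replicate number as a block, median scaling, array weights, only the groups compared, and each library left out) and 3 chosen after seeing the data: voom on recovered reads, protein-coding genes only, and leaving out the first no_transgene and dCTT libraries. Of the 81 carriers, 1 enters the counts but is not reported by name here, and figures of all carriers show 80.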

Additional observations from a re-analysis of the deposited data

How the results depend on the processing

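Of the 69 differences followed under the 19 alternatives (those past the threshold, those of at least 0.5 without overlap, and 9 others that the text names), 3 changed sign. Leaving out 1 library at a time, Slc16a1 ran from -0.0011 to 0.39 for zfCTT over no_transgene, Slc27a1 from -1.85 to 0.028 for zfCTT over mSTING, and Slc7a6 from -1.52 to 0.046 for mSTING over no_transgene, where it was also 0.046 without both first libraries. The median over all 81 carriers also changed sign: for zfCTT over no_transgene it ran from -0.05 to 0.04. It did so too for zfCTT over dCTT (-0.05 to 0.0076), mSTING over no_transgene (-0.12 to 0.0019) and dCTT over no_transgene (-0.05 to 0.12). Under the replicate block, 3 carriers passed for zfCTT over no_transgene, 3 over dCTT and 3 for the tailed over the untailed groups, instead of 1 each; Slc15a3 and Slc16a3 joined Slc2a6 in the first 2 of these (adjusted p of 0.0208 and 0.0285 over no_transgene, 0.0220 and 0.0444 over dCTT). The replicate numbers are not labelled as a shared batch, and the deviations of same-numbered libraries correlated at 0.0318 to 0.762 between groups. Protein-coding genes only gave 3, 3, 3 and, for zfCTT over mSTING, 1 instead of 0. The count was 0 with no filter and without both first libraries in these 3 comparisons, 0 with only the groups compared for zfCTT over no_transgene and over dCTT, and 0 with array weights over no_transgene. For zfCTT over no_transgene and over dCTT, leaving out a zfCTT, dCTT or no_transgene library ended the Slc2a6 call. Fewer of all genes were called in those fits as well. For tailed over untailed, leaving out any library ended the Slc2a6 call. Over all genes, zfCTT over no_transgene had 146 calls, against 432 under the replicate block, 354 for protein-coding genes, 48 with voom, 13 with array weights, 64 at a mean RPKM of at least 5 and 34 without a filter. For zfCTT over dCTT there were 146 calls, against 409 under the replicate block, 157 with voom, 171 with array weights and 28 without a filter. The cause was not tested. With 2 libraries a group, a small difference that misses the threshold is not shown to be absent.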

Other observations

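Of the 41 Slc genes with macrophage roles that were listed, 19 were under the level of 5 RPKM. The iron and manganese transporter Slc11a2 was at 8.25 and 5.13 RPKM in zfCTT, 3.35 and 3.77 in mSTING, 4.18 and 3.24 in dCTT, and 3.85 and 3.26 in no_transgene. Slc31a2, a relative of the copper importer, was at 2.28 and 2.57 RPKM in zfCTT, 1.26 and 1.01 in mSTING, 0.901 and 0.852 in dCTT, and 0.905 and 0.967 in no_transgene. In both genes the zfCTT libraries were the highest, and neither passed the test. The cystine importer Slc7a11 differed within groups, at 1.71 and 0.704 RPKM in zfCTT, 0.472 and 0.572 in mSTING, 3.44 and 0.517 in dCTT, and 4.36 and 0.588 in no_transgene. The creatine carrier Slc6a8 was at 0.278 and 2.96 RPKM in zfCTT against 0.159 and 1.20 in no_transgene, higher in the second library of every group. The iron exporter ferroportin, Slc40a1, averaged 0.139 RPKM, and Slc46a2 was listed at 0 in all 8 libraries.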
